A study of Arabidopsis thaliana with 24 samples.

Results

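The comparison asks what loss of AtMYC2 changed in Arabidopsis thaliana seedlings grown in blue light with abscisic acid (ABA), in lines with and without the cop1-6 mutation. It uses 8 of the 24 arrays of the series, chosen by genotype and growth condition and not by any measured value. Seedlings of the Columbia ecotype were grown for 10 days at 22 °C under constant blue light of 35 µmol per s per m2, on plates with ABA at 0.5 (the unit is written um in the labels). The 4 genotypes were wild type (WT), the atmyc2 mutant, the cop1-6 mutant and the double mutant of both (atmyc2 cop1-6). Each had 2 replicates, with 1 array per replicate. The 4 arrays carrying atmyc2 (atmyc2 and the double mutant) were set against the 4 that did not (WT and cop1-6), with cop1-6 status as a covariate, over all 22746 probe sets that are not array controls. Whole seedlings were used, so fewer cells of a type and less RNA per cell cannot be told apart, and the labels do not say which lesion the atmyc2 line carries. The labels do not say either whether replicates came from separate cultures, so the p-values cover the variation among these samples alone, and that may be technical.

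AtMYC2 belongs to the basic helix-loop-helix transcription factors and binds G-box promoter elements. It is known as a central activator of jasmonate responses, as an activator of part of the ABA response, and as a repressor of blue light-mediated seedling growth responses. In the jasmonate pathway it promotes wound-response genes and holds back the branch that ends in defensins. COP1 is an E3 ubiquitin ligase that targets light-signalling factors for degradation, and cop1-6 is a viable, partial loss-of-function allele. ABA slows germination and seedling growth and raises genes for late-embryogenesis (LEA) and cold-regulated protective proteins.

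Values are array signals, to which the authors had already applied a common scale, and differences are on the scale of log2(signal + 1), given as log2 ± SE from the limma fit. A probe set is said to be called, and its gene to rise or fall, where the Benjamini-Hochberg adjusted p over all 22746 probe sets is under 0.05. The dim level is the 40th percentile of all signals, 19.1. Below it a log2 difference depends on the pseudocount, so the difference with 19.1 in place of 1 is given as well. The median signal of the 8 arrays ran from 36.75 to 41.3.

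The 2 cop1-6 arrays with ABA stood apart from each other. Among 14344 probe sets whose mean passed the dim level on at least 1 side of the comparison, they differed more than 2-fold at 1471 (10.3%), against 0.258% to 0.76% for the other 3 pairs. Replicate 1 was closest to replicate 1 of the double mutant (r = 0.969 across probe sets, which are not independent), and replicate 2 to replicate 1 of WT (r = 0.956). The difference between the double mutant and atmyc2, which uses neither cop1-6 array, was set beside the difference of each cop1-6 array from the WT mean. Of the 853 probe sets at which the double mutant and atmyc2 differed more than 2-fold, replicate 1 deviated from WT to the same side at 98.1%, with a median log2 shift of 1.59, and replicate 2 at 67.5%, with a median of 0.44. Over these probe sets the array labelled cop1-6 replicate 2 thus lay closer to WT than its cop1-6 label would place it. This did not hold at every gene. Results below are given with all 8 arrays and, where they change, without each of the 2 cop1-6 arrays.

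**Figure D1:**
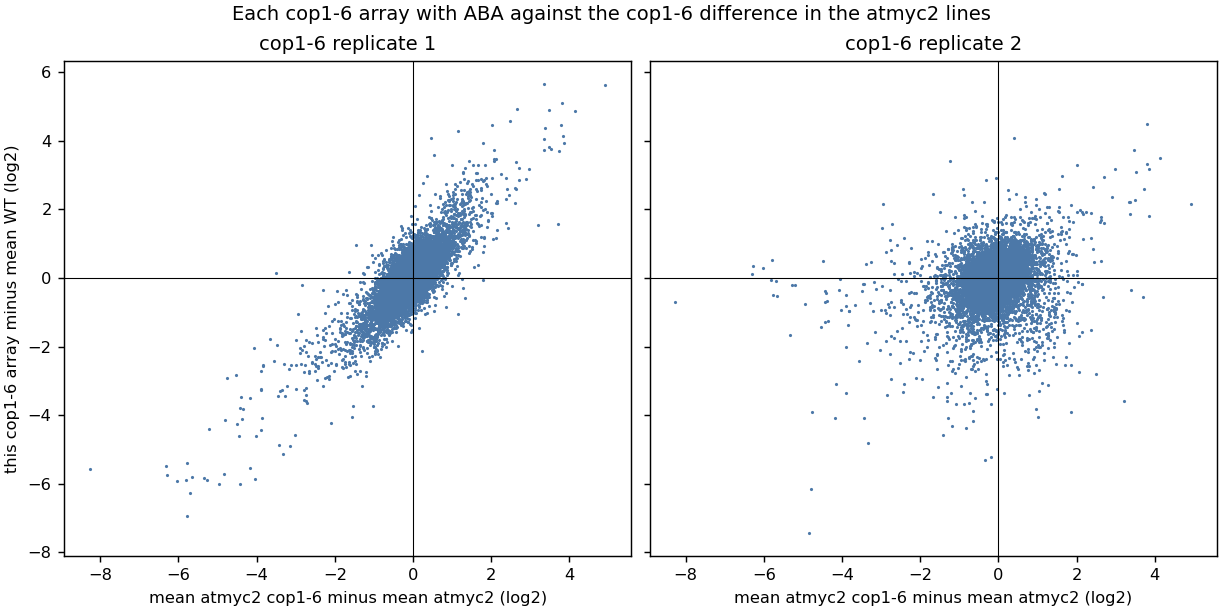
Each point is a probe set above the dim level (14344). The x axis is the mean of the double mutant minus the mean of atmyc2, and the y axis is 1 cop1-6 array minus the mean of WT, both with ABA and in log2 units. The points of replicate 1 follow the diagonal more closely (r = 0.818) than those of replicate 2 (r = 0.277).

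The annotation used here assigns neither MYC2 nor COP1 to any probe set, so the targeted genes were not checked by name. A probe set with no gene in the annotation, chosen with its values known and called the marker probe set here, separated the genotypes in this condition too. It read 238.2 and 218.3 in WT, 251 and 176.5 in cop1-6, 15 and 13.5 in atmyc2, and 0.3 and 0.4 in the double mutant. All 4 arrays carrying atmyc2 therefore lay below the dim level and all 4 others far above it, and both cop1-6 arrays went with their AtMYC2 label. Few organ markers had a probe set with 1 gene, at 1 of 11 for green shoot and 1 of 13 for root. None of 12 for embryo or seed had one. PSAN, a photosystem I subunit of green tissue, read 1142.9 to 1694.7 on all arrays. EXPA7, an expansin of root hair cells, read 45.9 and 67.4 in WT, 61.3 and 46 in atmyc2, 4.2 and 76.4 in cop1-6, and 3.9 and 5.4 in the double mutant. Here cop1-6 replicate 1 was as low as the double mutant and replicate 2 as high as WT. Its homologue EXPA18 showed the same order, with 1.4 and 42.7 in cop1-6 against 0.4 and 0.6 in the double mutant. Other listed genes did not follow this order. The flavonoid gene DFR read 18.2 and 19.8 in WT, 351.6 and 180.1 in cop1-6, and 229.8 and 225.6 in the double mutant. The expansin gene EXPA8 read 39.7 and 54.7 in WT, 1.2 and 3.7 in cop1-6, and 4.4 and 0.5 in the double mutant.

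With ABA, loss of AtMYC2 changed 22 probe sets (0.0967% of those tested) in the fit over both backgrounds. Of these 12 were lower (0.0528%) and 10 higher (0.044%) in the lines carrying atmyc2. At an unadjusted p under 0.05 there were 1063 lower (4.67%) and 1292 higher (5.68%). The annotation gives 1 gene to 11 of the 22 (7 lower and 4 higher), while the other 11 have either several genes or none and are not named. All 22 had the same sign in the WT and the cop1-6 background, which a fit of 1 common difference favours, against 56.2% of all probe sets. The 4 arrays of each side did not overlap for 16 of the 22, against 852 (3.75%) of all probe sets. By direction, 1.56% of all probe sets were separate and lower and 2.18% separate and higher. The 22 were chosen by a test on these same arrays, which favours separate sides.

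The gene that fell most was AT1G66100, for which the annotation gives no name beyond its locus. Its signal was 164.7 and 149 in WT and 209.9 and 149.6 in cop1-6. It was 7.4 and 10.3 in atmyc2 and 6.7 and 3.3 in the double mutant, so all 4 arrays carrying atmyc2 lay below the dim level. The log2 difference was -4.48 ± 0.25 (adjusted p = 8.3e-05), or -2.84 with 19.1 as the pseudocount. It passed the test in each background alone, at -4.02 ± 0.31 between atmyc2 and WT and -4.95 ± 0.31 between the double mutant and cop1-6. The call held under all 18 alternatives tried, with adjusted p from 6.09e-07 to 0.025.

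AT5G19110, likewise without a name in the annotation, read 382.2 and 404.1 in WT and 364.9 and 219.8 in cop1-6. It read 57.1 and 61.3 in atmyc2 and 79 and 68.5 in the double mutant, and here the low arrays stayed well above the dim level. The groups did not overlap, with a log2 difference of -2.32 ± 0.19 (adjusted p = 0.001792). The difference was called between atmyc2 and WT (-2.71 ± 0.22, adjusted p = 0.006862) but not between the double mutant and cop1-6 (-1.93 ± 0.22, adjusted p = 0.06548). It was lost under 1 of 18 alternatives, moderation without trend and robust (adjusted p = 0.148).

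JRG21 (AT3G55970, jasmonate-regulated gene 21) encodes an oxygenase that inactivates jasmonate by hydroxylation and is itself induced by jasmonate. Its signals were 926.2 and 911.5 in WT and 617.2 and 1363.6 in cop1-6. They were 262.3 and 281.6 in atmyc2 and 305.7 and 230.9 in the double mutant. The 2 backgrounds gave nearly equal values, -1.75 ± 0.33 and -1.78 ± 0.33, and together a fall of -1.77 ± 0.21 (adjusted p = 0.02911). The call held under 9 of 18 alternatives (adjusted p from 0.00028 to 0.553, the highest with all 24 arrays in the fit). Its cop1-6 arrays differed more than 2-fold, but both stood above every array carrying atmyc2.

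AT2G39420 and AT5G44050 completed the lower genes that met the rule for naming. AT2G39420 read 71.9 and 51.2 in WT and 86.2 and 65.3 in cop1-6, against 25.4 and 28.1 in atmyc2 and 40.7 and 36.6 in the double mutant (log2 -1.05 ± 0.16, adjusted p = 0.04746). AT5G44050 was dimmer, at 26.1 and 27.8 in WT and 32.1 and 49.7 in cop1-6 against 8.5 and 9.3 in atmyc2 and 18.4 and 15.8 in the double mutant. Its log2 difference was -1.34 ± 0.20 (adjusted p = 0.04566), or -0.72 with 19.1 as the pseudocount. Both sides were separate for each gene, but with 19.1 as the pseudocount neither kept its call (adjusted p = 0.05513 and 0.05223).

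A further pair of called genes fell outside the naming rule because the sides overlapped across backgrounds, and they are named after their values were seen. AT4G22212 read 322.6 and 352.2 in WT against 159.4 and 88.5 in atmyc2, and 207.9 and 141.4 in cop1-6 against 27.5 and 33.7 in the double mutant. AT2G38240 read 282.4 and 225.6 in WT against 75 and 109.6 in atmyc2, and 577.5 and 646.7 in cop1-6 against 310.1 and 297.2 in the double mutant. Within each background the arrays of both genes were separate, and the overlap came from the difference between backgrounds. The log2 differences were -1.98 ± 0.25 for AT4G22212 (adjusted p = 0.04122) and -1.24 ± 0.15 for AT2G38240 (adjusted p = 0.02357).

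Among the genes that rose, BCAT4 (AT3G19710) encodes the aminotransferase that opens the chain elongation of methionine for aliphatic glucosinolates, sulfur-rich defence compounds. It read 150.1 and 128.3 in WT and 153.2 and 143.5 in cop1-6. The arrays carrying atmyc2 stood higher, at 465.8 and 356.9 in atmyc2 and 341.8 and 284.4 in the double mutant, with no overlap. The log2 difference was 1.31 ± 0.14 (adjusted p = 0.01134), at 1.55 ± 0.17 in the WT background and 1.07 ± 0.17 with cop1-6.

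AT2G43620 read 527.8 and 545 in WT and 994.8 and 550.4 in cop1-6, against 1098.9 and 1393.5 in atmyc2 and 1675.6 and 1800.2 in the double mutant (log2 1.22 ± 0.16, adjusted p = 0.03306). AT1G21440 read 215.3 and 263.8 in WT and 234.3 and 164.8 in cop1-6, against 419.9 and 421.9 in atmyc2 and 472.2 and 452.1 in the double mutant (log2 1.02 ± 0.14, adjusted p = 0.03306). Each pair of sides was separate, though the brighter cop1-6 array of AT2G43620 came within a short distance of the lowest atmyc2 array. The remaining called gene, AT3G60170, is annotated as a pseudogene and stayed near or below the dim level everywhere (0.8 to 3.6 without atmyc2, 8.6 to 22.5 with it). It is named after its values were seen, and its log2 difference of 2.77 ± 0.39 became 0.80 with 19.1 as the pseudocount, where it was not called (adjusted p = 0.05513). Of the 22 probe sets, 17 kept their call at that pseudocount.

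To fill the higher direction to 5 genes, the naming rule adds values for AT2G31790 and AT3G04450, which were not called. AT2G31790 read 167.4 to 221 on the arrays without atmyc2 and 258.3 to 313.7 on those with it (log2 0.54 ± 0.11, adjusted p = 0.1665). AT3G04450 was near the dim level, at 4.6 to 10.9 and 16.9 to 22.3 (log2 1.32 ± 0.27, adjusted p = 0.1771).

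**Figure D2:**
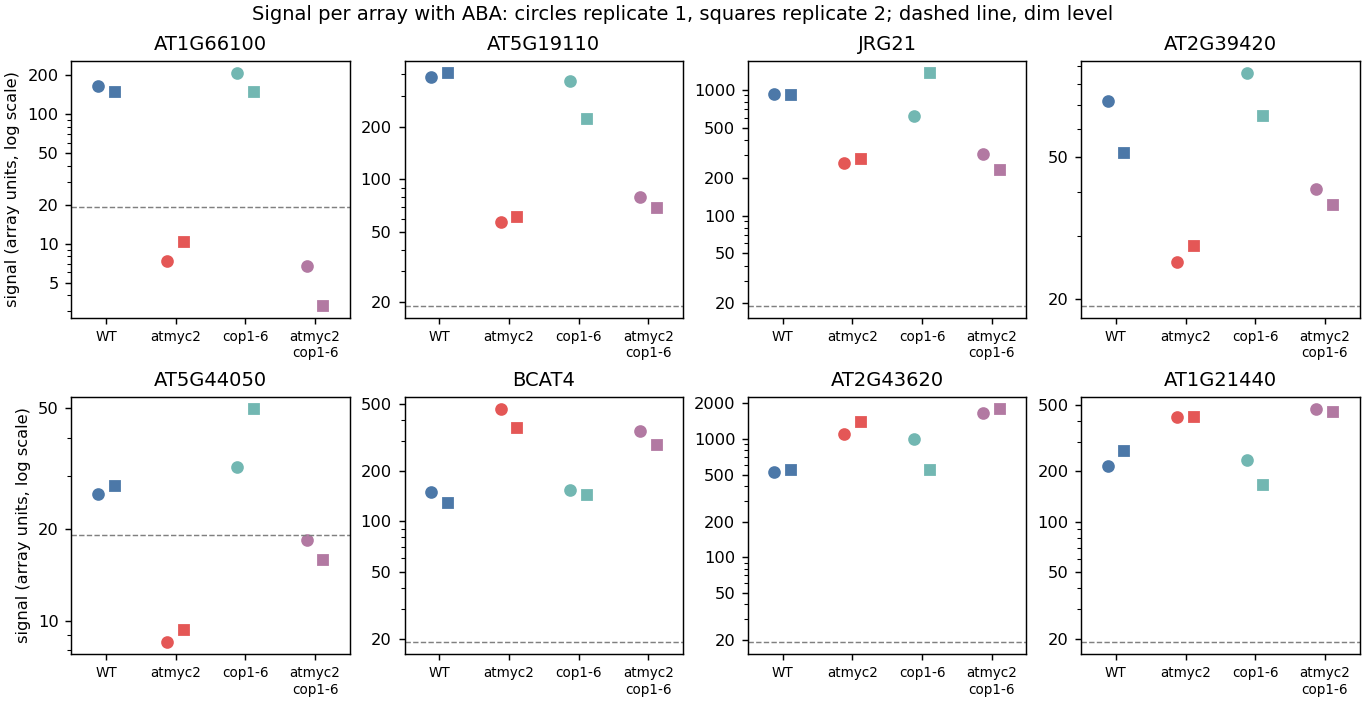
Signal on a log axis for the 8 named genes that were called, 1 panel per gene, by genotype with ABA; each point is 1 array and the dashed line is the dim level of 19.1. In each panel the 4 arrays carrying atmyc2 lie all below (the first 5 genes) or all above (BCAT4, AT2G43620 and AT1G21440) the other 4.

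AT1G66100 and AT5G19110 kept their calls when any of the 8 arrays was left out. BCAT4 did so for 4 of the 8 arrays, and JRG21, AT2G39420, AT5G44050, AT2G43620 and AT1G21440 only when the array left out was either cop1-6 array. In these fits their log2 differences kept their direction. Over all alternatives BCAT4 was called under 13 of 18, AT1G21440 under 9 of 18, AT2G43620 under 8 of 18, AT2G39420 under 5 of 18 and AT5G44050 under 6 of 17. The total of 22 moved to 142 without cop1-6 replicate 1 and to 112 without cop1-6 replicate 2. Without any other array it fell, to 7 without atmyc2 replicate 1, to 6 without the double mutant's replicate 2, and to 2 without either WT array, atmyc2 replicate 2 or the double mutant's replicate 1.

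Taken within each background, 4 probe sets (0.0176%) fell between atmyc2 and WT, and 2 (0.00879%) fell between the double mutant and cop1-6, with none higher in either. The 4 were AT1G66100, AT5G19110, the marker probe set and another probe set with no gene. The 2 were AT1G66100 and the marker probe set. The fit shares the spread of the cop1-6 pair among the groups, and without cop1-6 replicate 1 or replicate 2 the calls between atmyc2 and WT numbered 190 (0.835%) and 191 (0.84%). Between the double mutant and cop1-6 they numbered 3397 (14.9%) and 137 (0.602%), where a lone cop1-6 array is assumed to vary like the other groups. Over the probe sets above the dim level the 2 background differences, which share no array, correlated with r = 0.388, and over all 22746 probe sets with r = 0.147.

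**Figure D3:**
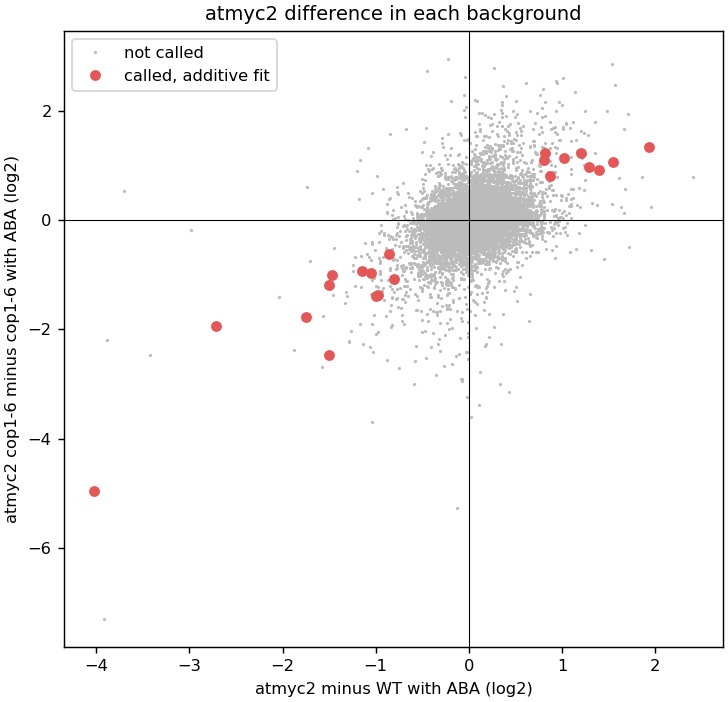
Each point is a probe set above the dim level (14344). The x axis is atmyc2 minus WT and the y axis the double mutant minus cop1-6, both with ABA and in log2 units, with called probe sets of the additive fit in red (21 of the 22). All red points lie where both differences have the same sign, and AT1G66100 is the red point at -4.02 and -4.95.

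The interaction asks whether the atmyc2 difference depended on the cop1-6 background. No probe set was called (0%) by limma, and 1369 had an unadjusted p under 0.05. Without cop1-6 replicate 1 the test called 1492 probe sets (6.56%), and without replicate 2 it called 20 (0.0879%). The 3 genes with the smallest p with all arrays are given as values. AT1G29670 read 376.2 and 466.4 in WT and 442.7 and 389.8 in atmyc2, but 77.2 and 60.5 in cop1-6 and 197.7 and 188 in the double mutant (interaction 1.495 ± 0.24, adjusted p = 0.8227). AT2G10940 read 1090 and 1318 in WT and 1119.5 and 1082.7 in atmyc2, but 350.1 and 312.5 in cop1-6 and 722.4 and 637 in the double mutant (interaction 1.16 ± 0.20). AT3G22550 read 67.6 and 68.2 in WT and 78.9 and 101.2 in atmyc2, but 371.3 and 274 in cop1-6 and 148 and 116.1 in the double mutant (interaction -1.67 ± 0.29). In all 3 genes the WT and atmyc2 arrays lay close together, cop1-6 lay far from them, and the double mutant lay between.

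The same comparison in blue light without ABA uses 8 other arrays. There 3 probe sets were called (0.0132%), all lower, and 1 of them, AT5G19110, was also called with ABA. The other 2 were the marker probe set and a probe set with no gene. With ABA both had separate, lower sides, against 1.56% of all probe sets, at log2 -5.60 ± 0.68 and -3.04 ± 0.77. Neither was called there in the fit with all arrays (adjusted p = 0.0883 and 0.3828). In darkness 1 was called (0.0044%), the marker probe set. Of the 22 probe sets called with ABA, 18 had the same sign in blue light and 9 in darkness. The share of all probe sets with the same sign was not computed for these conditions, so no carry-over is read from these counts. Of the 22, 1 had 4 arrays clear of the other 4 in the same direction in blue light, against 1.76% of all probe sets in either direction.

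For AT1G66100 the difference itself differed between conditions. In blue light it read 52.3 and 69 in WT, 103.3 and 122.2 in cop1-6, 49.3 and 52.9 in atmyc2, and 45 and 30.7 in the double mutant. The atmyc2 difference there was -0.90 ± 0.27 (adjusted p = 0.9877), and with ABA it was larger by -3.58 ± 0.30 (adjusted p = 0.0001095), or by -2.15 with 19.1 as the pseudocount (adjusted p = 0.0002389). This was the 1 probe set (0.0044%) called in the test of ABA against blue light. In darkness all 8 arrays lay below the dim level, at 0.8 to 12.2. The 25S ribosomal RNA control probe set read 769.5 to 2762.5 on the ABA arrays and 28.5 to 96.3 on the blue light arrays, and its part in differences between conditions was not tested.

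AT5G19110 had a negative atmyc2 difference in every condition. In blue light it read 22.4 and 25 in WT and 62.7 and 85.6 in cop1-6 against 5.8 and 4.4 in atmyc2 and 6.3 and 14.9 in the double mutant (log2 -2.41 ± 0.32, adjusted p = 0.04599). In darkness the difference was -1.89 ± 0.38 (adjusted p = 0.3242). Every array with ABA read above both arrays of its genotype in blue light, and the atmyc2 difference with ABA minus that in blue light was 0.08 ± 0.32 (adjusted p = 0.9856). The atmyc2 arrays in blue light lay below the dim level, and with 19.1 as the pseudocount the differences were -2.05 with ABA, -1.24 in blue light and -0.91 in darkness, which turns the ABA minus blue light value to -0.81 (adjusted p = 0.9067).

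BCAT4 read 940.2 and 868.6 in WT and 810.8 and 642.6 in atmyc2 in blue light, and 468 and 561.8 in cop1-6 against 685.3 and 428.8 in the double mutant, so the sides overlapped (log2 -0.12 ± 0.17). The change between conditions was 1.43 ± 0.22 (adjusted p = 0.1224). JRG21 was low in blue light in WT (40.1 and 18.7) and atmyc2 (6.1 and 39), and high in cop1-6 (497 and 796.3) and the double mutant (124.7 and 360.7). Its blue light difference of -1.16 ± 0.59, or -0.89 with 19.1 as the pseudocount, was not called (adjusted p = 0.9877). AT2G43620 had opposite signs, with 1.22 ± 0.16 with ABA and -0.72 ± 0.32 in blue light, and the change of 1.94 ± 0.33 was not called (adjusted p = 0.2019).

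**Figure D4:**
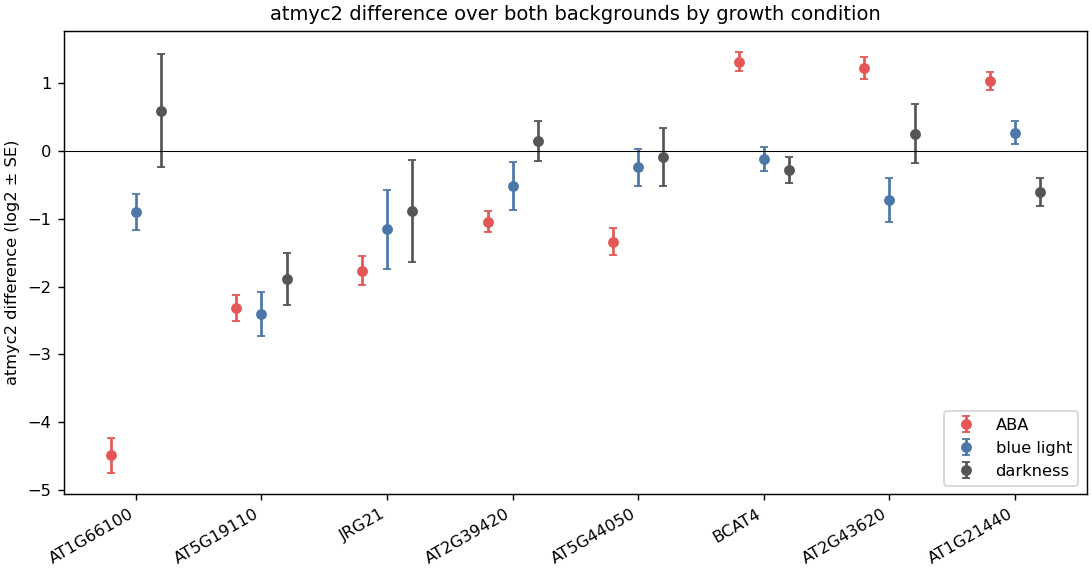
The atmyc2 difference over both backgrounds (log2, with SE bars) for the 8 named genes with ABA, in blue light and in darkness, each condition fitted on its own 8 arrays. At the plotted pseudocount of 1 AT5G19110 lies between -1.89 and -2.41 in the 3 conditions (-0.91 to -2.05 with 19.1), while AT1G66100 lies at -4.48 with ABA, -0.90 in blue light and 0.59 in darkness.

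Gene lists were read by their counts and medians beside those of all probe sets, whose median log2 difference was 0.01. The lists were chosen with earlier results of these data known, so a called member is no independent support for its list. Of all probe sets 0.0967% were called, so a short list without a call does not show that its genes were unchanged. Of the jasmonate signalling genes measured, 1 of 4 fell, which was JRG21, against 0.0528% of all probe sets. MYC3 and MYC4, homologues of AtMYC2, read 79.1 to 112.2 and 41.1 to 67.8 without atmyc2 and 59.4 to 95.5 and 57.5 to 84.2 with it (log2 -0.39 ± 0.13 and 0.36 ± 0.18, not called). None of 3 jasmonate synthesis genes was called, nor the 2 of the branch that AtMYC2 activates, DFR and JAL23. In the branch of ethylene response factors and defensins none of 8 was called. The defensin gene PDF1.2 stayed below the dim level on all 8 arrays (4.5 to 14.4). THI2.1, an antimicrobial thionin induced by jasmonate, read 223.8 and 124.1 in WT and 312.2 and 26.9 in cop1-6, against 430.7 and 546.3 in atmyc2 and 636.4 and 720.3 in the double mutant. Its sides did not overlap, its log2 difference was 2.197 ± 0.81 (adjusted p = 0.4575), and without cop1-6 replicate 2 it was called (adjusted p = 0.004565), but not without replicate 1 (adjusted p = 0.1496). The thionin THI2.2 had the opposite sign, at 56.1 and 47.6 in WT against 40.2 and 32.5 in atmyc2, and 7.1 and 12.1 in cop1-6 against 1.8 and 1.2 in the double mutant. Its log2 difference of -1.28 ± 0.33 was not called (adjusted p = 0.3128) and was -0.42 with 19.1 as the pseudocount.

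Of 6 methionine glucosinolate genes, likewise listed with earlier results known, 1 rose, BCAT4, against 0.044% of all probe sets. The list's median was 0.18. GSTU20, a glutathione transferase linked to the synthesis of these compounds, read 157.3 and 136.9 in WT and 520.3 and 449 in atmyc2. In the cop1-6 background it read 291 and 63.3 in cop1-6 and 550.7 and 498.1 in the double mutant. No array of one side overlapped the other, but the cop1-6 arrays lay far apart, and the log2 difference of 1.83 ± 0.44 was not called (adjusted p = 0.3548). Leaving out cop1-6 replicate 1 or replicate 2 made it a call (adjusted p = 0.02605 and 0.002004). AOP1, of the dioxygenase family that modifies glucosinolate side chains, read 18.6 to 30.2 without atmyc2 and 30.3 to 35.4 with it (log2 0.49 ± 0.17, not called). The glucosinolate transporters GTR1 and GTR2 had log2 differences of -0.24 ± 0.10 and -0.13 ± 0.16, and AOP3 stayed below the dim level. UGT74B1, a glucosyltransferase of glucosinolate core synthesis, was listed with the indole glucosinolates and not with the 6 above. It read 360.6 to 546.9 without atmyc2 and 513.1 to 637.1 with it (0.41 ± 0.13, not called).

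None of the 11 ABA-responsive effector genes was called, against 0.0967% of all probe sets, and their median was 0.64. Of the 11, 3 were below 0, COR47, XERICO and COR27. COR27 was the 1 member with an unadjusted p under 0.05 (log2 -0.40 ± 0.15, adjusted p = 0.4279). It read 198.8 and 208.8 in WT against 133.8 and 132.6 in atmyc2, and 123.8 and 185.3 in cop1-6 against 151 and 115.3 in the double mutant. LEA4-5 read 309.6 and 284.7 in WT and 479.3 and 575.8 in atmyc2, and 1300.3 and 87.7 in cop1-6 against 1125.1 and 1431.5 in the double mutant. The atmyc2 arrays stood above WT, while cop1-6 replicate 1 was as high as the double mutant and replicate 2 below every other array. For COR15A, a cold-regulated protein of the chloroplast, the signals were 425.3 and 302 in WT, 417.1 and 556.4 in atmyc2, 1428.1 and 379.2 in cop1-6, and 1534.3 and 1781.5 in the double mutant. The median of the list was 0.94 without cop1-6 replicate 1 and 0.19 without replicate 2.

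None of 3 light-harvesting antenna, 4 photosystem core, 3 Calvin cycle and 8 chlorophyll synthesis genes was called, against 0.0967% of all probe sets. The list medians ran from 0.02 to 0.19. The sides were separate for SBPASE, a Calvin cycle phosphatase (500.6 to 634.3 without atmyc2, 641.3 to 803.9 with it, log2 0.35 ± 0.12) and for NOL, a chlorophyll b reductase of chlorophyll breakdown (70.7 to 79.1 and 87.2 to 112.4, log2 0.43 ± 0.12), neither of them called. The 69 plastid-encoded probe sets had a median of -0.09 and no call. Without cop1-6 replicate 1 the median was -0.20, and without replicate 2 it was 0.02. No member was called either among 4 flavonoid, 3 light signalling, 4 redox, 7 auxin response, 9 cell wall expansion, 3 reserve mobilisation, 3 chlorophyll breakdown and senescence, 2 root and 2 embryo and seed storage probe sets, nor of 1 salicylate and 1 ethylene gene. XTH16, a cell wall transglucosylase, was the cell wall gene with separate sides, at 440.3 to 481.7 without atmyc2 and 367.2 to 400.5 with it (log2 -0.28 ± 0.09, adjusted p = 0.3918).

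All 23 mitochondrial probe sets were below 0, against 10911 of all 22746 probe sets, with a median of -1.03. They stand for 16 genes of respiratory chain subunits, cytochrome c maturation factors and others. None was called, and 8 were lower at an unadjusted p under 0.05, against 4.67% of all probe sets. The 23 are not independent of each other, so counts of them do not stand for replicates. Between atmyc2 and WT, where no cop1-6 array enters the values, all 23 were lower with a median of -0.75, and both atmyc2 arrays lay below both WT arrays at 19 of them, against 19.4% of all probe sets. Between the double mutant and cop1-6 the median was -1.24 and 12 of 23 were separate, against 18.5%. Over both backgrounds, 4 arrays against 4, none of the 23 was separate, against 1.56% of all probe sets. The median over both backgrounds was -1.47 without cop1-6 replicate 1 and -0.50 without replicate 2.

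The array medians of the mitochondrial probe sets were 118.2 and 138.3 in WT, 74.5 and 75.9 in atmyc2, 39.7 and 193.6 in cop1-6, and 30.4 and 31.6 in the double mutant. cox2, a subunit of cytochrome c oxidase, read 724.4 and 562.3 in WT and 228.9 and 233.5 in atmyc2, and 217 and 716.9 in cop1-6 against 155.8 and 148.7 in the double mutant. Its log2 difference was -1.42 ± 0.34 (adjusted p = 0.3354), and it was called without either cop1-6 replicate (0.004447 without replicate 1 and 0.01476 without replicate 2). nad9, a subunit of respiratory complex I, read 782.2 and 696.8 in WT and 289 and 326 in atmyc2, and 134.6 and 1203.7 in cop1-6 against 106.2 and 91.2 in the double mutant (log2 -1.64 ± 0.69, adjusted p = 0.4987). For both genes cop1-6 replicate 1 lay near the double mutant and replicate 2 within or above the WT range, as for EXPA7. In blue light the median of the list was -0.10. The 25S ribosomal RNA probe set, a control, read 2636.8 and 2762.5 in WT, 1970.1 and 2561 in atmyc2, 769.5 and 1668.8 in cop1-6, and 1600.8 and 1433.8 in the double mutant. Its part, and that of the root hair marker, in the mitochondrial differences was not tested.

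**Figure D5:**
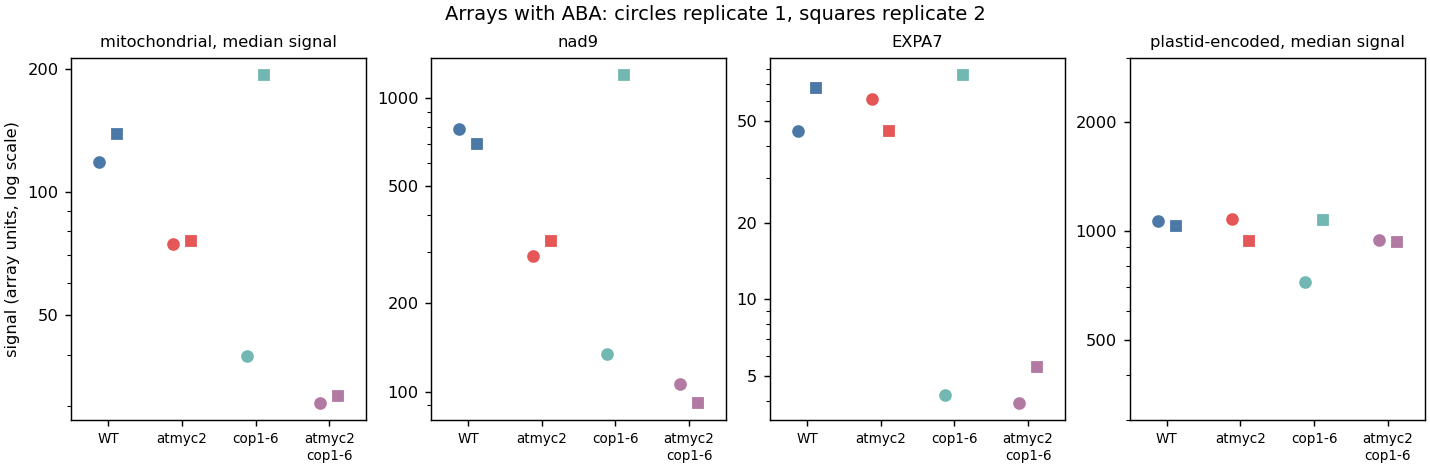
Signal on a log axis by genotype with ABA, 1 point per array, for the median of 23 mitochondrial probe sets, nad9, the root hair gene EXPA7 and the median of 69 plastid-encoded probe sets. The cop1-6 squares (replicate 2) lie with or above WT and the circles (replicate 1) with the double mutant in the first 3 panels.

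Without cop1-6 replicate 1 the additive fit called 142 probe sets (0.624%), and without replicate 2 it called 112 (0.492%). They shared 43, which is 30.3% of the first set and 38.4% of the second, and all 22 of the fit with every array were among them. The other 21 were 17 lower and 4 higher, 11 had sides that did not overlap, and 9 had 1 gene. Of these 9, 3 carry a symbol, cox2, GSTU20 and TBL37, a TRICHOME BIREFRINGENCE-LIKE gene of the family that acetylates cell wall polymers. TBL37 read 664.3 and 692.8 in WT and 443.4 and 419.8 in atmyc2, and 989.3 and 1063.5 in cop1-6 against 683.1 and 795.1 in the double mutant (log2 -0.56 ± 0.14). Its arrays were separate within each background. The fits without replicate 1 and without replicate 2 share most arrays with each other and with the full fit, which favours an overlap of their calls. Each keeps 1 cop1-6 array, so the spread within the cop1-6 pair does not enter it. The shared calls are thus no independent support for these genes. The marker probe set was among the 21 as well, with background differences of -3.91 and -7.29 and an adjusted p of 0.0883 in the fit with all arrays.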

How the data were processed

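The deposited values are signal intensities of each probe set on each array, made by the authors with GCOS 1.4, per the submitters' processing notes. Trimmed means without the outer 2% of values were 100.0 on every array, so no further scaling was applied. Of 22810 probe sets 64 controls were set aside. R 4.3.3 with limma 3.58.1 (lmFit, eBayes with trend and robust) fitted log2(signal + 1) on the 8 ABA arrays with atmyc2 and cop1-6 status as terms. A 4-group fit gave each background and the interaction, and a fit on 16 arrays the test against blue light. The fit was tested on simulated data. The number of arrays limits the precision. Genes were named from the supplied probe table and RefSeq names (TAIR10.1), with 13513 probe sets having 1 gene, 503 several and 8730 none. Named were up to 10 called genes per direction, ranked at a pseudocount of 19.1, with separate sides and a mean above that level. Fewer than 5 were filled by smallest p. List members that were called and defining members were named too. The comparison, the lists and these rules were chosen with earlier results of these data known, and some list members were added after the annotation was seen. Alternatives were 2 other pseudocounts, filters at the 40th and 60th percentiles, quantile normalization, plain moderation, a replicate block, all 24 arrays, no covariate, the mean of within-background differences, and each array left out.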

Additional observations from a re-analysis of the deposited data

Results flagged for a closer look

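AT1G66100 was the 1 gene whose atmyc2 difference with ABA differed from that in blue light by a direct test. The difference with ABA was larger by -3.58 on the log2 scale, and the call held under all 24 alternatives (adjusted p from 7.22e-05 to 0.0154). The size depended on the pseudocount, since the arrays carrying atmyc2 lay below the dim level with ABA: it ranged from -3.80 to -2.15 over these alternatives, the latter at a pseudocount of 19.1. All 4 arrays without atmyc2 were higher with ABA than the arrays of the same genotype in blue light, and all 4 arrays with atmyc2 were lower.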

How the results depend on the processing

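The 22 calls over both backgrounds became 1 (moderation without trend and robust), 10 (replicate block), 38 (all 24 arrays) and 4 (no cop1-6 covariate), and 15 to 25 under the other 6 settings. Leaving out 1 array gave 2 to 142. The 4 calls between atmyc2 and WT became 1 with plain moderation and 0 to 191 without 1 array (0 without either WT array or atmyc2 replicate 2, 1 without atmyc2 replicate 1, 2 without either double mutant array, 190 and 191 without cop1-6 replicate 1 and 2). The 2 calls between the double mutant and cop1-6 became 1 with plain moderation and 34 with all 24 arrays, and 2 to 3397 without 1 array, 2 unless that array was cop1-6 replicate 1 (3397) or 2 (137). The interaction rose from 0 to 1 call with no pseudocount, and without 1 array had 0 to 1492 (cop1-6 replicate 1, 1492, and replicate 2, 20). The 1 call of ABA against blue light became 3 with the replicate block and 4 with all 24 arrays, and 1 to 245 without 1 array (245 without cop1-6 ABA replicate 1, 4 without the double mutant's blue light replicate 1). Replicate numbers did not pair the arrays: deviations of same-numbered arrays correlated from -0.057 to 0.071 over 6 pairs of groups. Of 202 repeats for named genes, 144 kept their side of the threshold, 58 lost a call and none changed direction. The cause of these shifts was not tested.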
